A study of Mus musculus with 49 samples.

Results

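The late granulocyte programme was followed in 10 genes across the 10 groups of the series, 6 of normal haematopoietic cells and 4 of leukaemias. They were S100a8, S100a9, Ngp, Camp, Ltf, Lcn2, Mmp8, Mmp9, Chi3l3 (named Chil3 in newer annotation) and Lyz2, taken by name as those whose Ensembl identifier maps to these symbols, and each matched 1 of the 38253 genes in the deposited table. All 10 passed the filter of a mean of at least 1 FPKM (fragments per kilobase of exon scaled to the number of mapped fragments, a level corrected for library size and transcript length) in each of the 3 fits used here. FPKM is scaled per length, and levels of different genes are set side by side here only as a rough guide. The part of cDNA amplification and base content in differences between genes was not tested.

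Granulocytes load their granules in sequence as they mature. Primary (azurophil) granules, with myeloperoxidase and serine proteases, are filled at the promyelocyte stage, and the proteins of secondary (specific) and tertiary (gelatinase) granules are made later, in myelocytes and metamyelocytes. Ltf (lactoferrin, an iron-binding protein), Ngp (neutrophilic granule protein), Camp (the cathelicidin precursor of an antimicrobial peptide), Lcn2 (lipocalin, which binds iron-carrying siderophores) and Mmp8 (neutrophil collagenase) are contents of secondary granules. Mmp9 (gelatinase B) marks tertiary granules, S100a8 and S100a9 form the calcium-binding complex calprotectin of the neutrophil and monocyte cytosol, Chi3l3 encodes the chitinase-like protein Ym1, and Lyz2 encodes lysozyme M, which monocytes and macrophages also make.

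The study asked how the cell that receives the MLL-AF9 fusion shapes the leukaemia that follows. Normal cells were sorted from bone marrow of wild-type C57BL/6J mice aged 6 to 12 weeks as long-term stem cells (LT-HSC, 5 samples), short-term stem cells (ST-HSC, 5), multipotent progenitors (MPP, 6), common myeloid progenitors (CMP, 5), granulocyte-macrophage progenitors (GMP, 5) and megakaryocyte-erythroid progenitors (MEP, 4). The gates took lineage-negative cells, and the lineage antibodies included those to Gr-1 and CD11b of mature granulocytes and monocytes. Leukaemias arose after a retrovirus carrying MLL-AF9 and GFP was put into sorted ST-HSC, MPP, CMP or GMP and the cells were transplanted into sublethally irradiated mice, and are called STHSC:MA9 (3 samples), MPP:MA9 (6), CMP:MA9 (4) and GMP:MA9 (6). The leukaemia samples were bulk GFP-positive cells with no gate on lineage, so mature and immature leukaemic cells were measured together. The study's methods place them in the spleen whereas the labels give bone marrow, and strain, age and a wild-type genotype are given in the labels for them as for the normal cells. In such bulk samples a change in the share of maturing cells and a change in RNA per cell cannot be told apart.

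Of the 38253 genes, between 15282 and 17852 were above 0 in a sample, and mitochondrial genes took 12.5% to 36.7% of the summed FPKM. Sequencing depth, estimated from the steps between low values, ran from 0.490 to 1.51 times that of the median sample, and no counts were analysed here. Identical values were found in 0 pairs of samples. The replicates are described by the study as independent biological samples.

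In the mm9 assembly 4 of the 10 genes lie on chromosome 9: Camp (chr9:109749889-109751970, minus strand), Ngp (chr9:110322254-110325514, plus strand), Ltf (chr9:110921796-110945270, plus strand) and, far from these, Mmp8 (chr9:7558429-7568486, plus strand). S100a8 (chr3:90472993-90473956, plus strand) and S100a9 (chr3:90496554-90499643, minus strand) lie on chromosome 3 with 22597 bases between them, and Chi3l3 (chr3:105950472-106022425, minus strand) is on the same chromosome. Lcn2 (chr2:32240153-32243317, minus strand), Mmp9 (chr2:164766280-164781350, plus strand) and Lyz2 (chr10:116714390-116719377, minus strand) complete the set. All 10 are protein coding, and the values are per gene over its exons. Chi3l3 and Lyz2 are the 2 whose values are uncertain, since 33.1% of the 31-base windows of Chi3l3 also occur in Chi3l4, whose exons overlap it, and 32.1% of those of Lyz2 occur in Lyz1. Chi3l4 was at most 1.58 FPKM in any sample, in MPP:MA9, and Lyz1 at most 19.1 FPKM, also in MPP:MA9. These values rest on the same assignment of shared reads, so they do not settle the uncertainty.

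C/EBP family factors bind the promoters of many of these genes, so the 250 bases before the transcription start are shown for S100a8 and for the secondary granule genes Camp, Ngp and Ltf (RefSeq, GRCm38.p6, written 5′ to 3′ on the strand of the gene). Capitals mark matches on either strand to TTNNGNAA, a loose core of the C/EBP motif. The windows are chr3:90668821-90669070 (plus), chr9:109849457-109849706 (minus), chr9:110419558-110419807 (plus) and chr9:111019042-111019291 (plus) in the order below.
S100a8: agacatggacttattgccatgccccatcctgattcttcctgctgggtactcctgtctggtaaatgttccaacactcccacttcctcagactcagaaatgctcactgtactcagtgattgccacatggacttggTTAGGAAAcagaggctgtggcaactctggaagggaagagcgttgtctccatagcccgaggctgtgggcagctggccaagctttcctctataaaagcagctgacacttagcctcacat
Camp: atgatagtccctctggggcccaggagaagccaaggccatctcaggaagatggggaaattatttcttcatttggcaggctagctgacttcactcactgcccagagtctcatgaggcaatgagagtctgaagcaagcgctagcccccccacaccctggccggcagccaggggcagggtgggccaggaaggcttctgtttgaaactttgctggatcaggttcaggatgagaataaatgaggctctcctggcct
Ngp: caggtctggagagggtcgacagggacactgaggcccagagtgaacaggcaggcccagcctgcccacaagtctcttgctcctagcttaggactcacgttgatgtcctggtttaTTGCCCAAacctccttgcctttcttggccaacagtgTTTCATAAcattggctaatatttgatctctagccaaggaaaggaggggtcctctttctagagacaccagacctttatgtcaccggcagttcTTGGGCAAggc
Ltf: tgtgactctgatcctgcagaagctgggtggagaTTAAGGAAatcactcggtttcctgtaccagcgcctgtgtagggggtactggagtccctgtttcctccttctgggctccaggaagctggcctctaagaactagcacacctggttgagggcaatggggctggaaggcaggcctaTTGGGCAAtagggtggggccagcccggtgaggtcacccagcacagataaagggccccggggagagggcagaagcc
Of the 10 genes 9 had a promoter entry, and 8 of these 9 held at least 1 match, against 36.8% of 32851 promoters of the same length. Ngp held 3 matches, at 138, 102 and 11 bases before the start, Ltf held 2 and S100a8 held 1, whereas the Camp window held none of these letters. Of the promoters not printed, that of Chi3l3 held 3 matches, those of S100a9 and Mmp8 held 2 each, and those of Lcn2 and Lyz2 held 1 each. A match is a run of letters and not a measured binding site.

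Before the groups are compared, 4 stem cell libraries have to be set apart. S100a8 was at 6.49, 11.01 and 10.9 FPKM in LT-HSC replicates 1 to 3, but at 20265 and 10324 FPKM in replicates 4 and 5. In ST-HSC it was at 11.6, 41.3 and 352 FPKM in replicates 1 to 3, and at 12625 and 2201 FPKM in replicates 4 and 5. The highest of these 4 values exceeded every leukaemia, in which S100a8 reached at most 12783 FPKM. Ltf, a defining product of secondary granules, was at 0.29, 0.57 and 0.11 FPKM in LT-HSC replicates 1 to 3 and at 1350 and 423 FPKM in replicates 4 and 5. In ST-HSC it was at 1.25, 0.46 and 11.8 FPKM in replicates 1 to 3 and at 554 and 140 FPKM in replicates 4 and 5. ST-HSC replicate 3 thus stood between the low and the high libraries, and was treated as one of the low ones unless stated.

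All 10 genes were higher in each of LT-HSC and ST-HSC replicates 4 and 5 than in any of the other 6 stem cell libraries, as were 28 of 30 other late granulocyte genes, against 5.33% of the 12666 genes above the low-level filter. These libraries were set apart for this very signal, so the counts describe them and test nothing. All 10 genes fell in the same order in them, LT-HSC replicate 4 highest, then ST-HSC replicate 4, LT-HSC replicate 5 and ST-HSC replicate 5, an order shared by 26 of the 30 other late genes and by 6.44% of all genes. Retnlg, a neutrophil resistin-like gene, was at 4199, 1454, 1765 and 293 FPKM in LT-HSC replicates 4 and 5 and ST-HSC replicates 4 and 5, and at most 53.6 FPKM in the other 6. Ly6g, the surface antigen of mature neutrophils, was at 374, 162, 231 and 63.3 FPKM in these 4, and listed at 0 in 5 of the other 6. Of 6 primary granule genes 0 were higher in all 4, but that rule also sets LT-HSC against ST-HSC libraries, which held more of these genes. Their summed level was 447 and 228 FPKM in LT-HSC replicates 4 and 5 against 70.1, 47.2 and 172 FPKM in replicates 1 to 3. In ST-HSC it was 1737 and 3053 FPKM in replicates 4 and 5 against 679, 1115 and 1982 FPKM in replicates 1 to 3. Mpo (myeloperoxidase) was at 210 and 83.9 FPKM in LT-HSC replicates 4 and 5 against 24.3, 6.70 and 92.2 FPKM in replicates 1 to 3.

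Other lineages moved with the same libraries. Of 7 erythroid markers 5 were higher in all 4, and the adult globin gene Hbb-b1 was at 44047, 24474, 24164 and 3781 FPKM in LT-HSC replicates 4 and 5 and ST-HSC replicates 4 and 5. ST-HSC replicate 2 reached 3770 FPKM of Hbb-b1 as well, with S100a8 at 41.3 FPKM. Of 9 monocyte markers 5, of 6 B lymphoid markers 2, and of the T lymphoid and megakaryocyte markers 0 of 4 each were higher in all 4. Of 5 eosinophil, basophil and mast cell markers 0 were higher in all 4. Yet their summed level was 1243 and 464 FPKM in LT-HSC replicates 4 and 5 against 10.2, 4.66 and 16.9 FPKM in replicates 1 to 3. In ST-HSC it was 480 and 257 FPKM in replicates 4 and 5, and 219, 896 and 487 FPKM in replicates 1 to 3. Of 6 stem and progenitor markers 1 was higher in all 4, Fcgr3 (an Fc receptor that gates GMP) at 87.1, 38.4, 47.2 and 21.2 FPKM in LT-HSC replicates 4 and 5 and ST-HSC replicates 4 and 5, and the summed level of the 6 was 219 and 248 FPKM in LT-HSC replicates 4 and 5 against 184 to 325 FPKM in replicates 1 to 3. The part of other cells in these values was not tested. Calls of the 10 genes and counts of the other lists that change without the 4 libraries are therefore given both ways, and the plot of the stem cell libraries shows them gene by gene. In MPP and MEP a single library also stood out less strongly: MPP replicate 6 was the highest MPP and MEP replicate 4 the highest MEP for all 10 genes, with S100a8 at 283 and 997 FPKM.

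**Figure D1:**
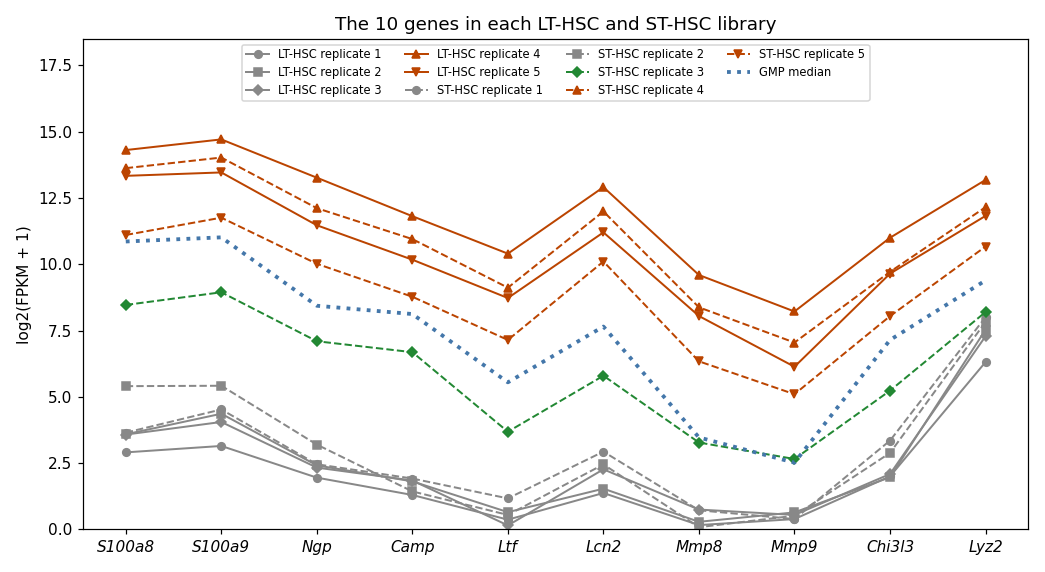
Level of the 10 genes, as log2(FPKM + 1), in each LT-HSC library (solid lines) and ST-HSC library (dashed lines), with the GMP median dotted in blue. The 4 libraries in orange, replicates 4 and 5 of both cell types, lie above the GMP median for each of the 10 genes, the 5 in grey lie below it, and ST-HSC replicate 3 (green) lies between the grey and the orange lines.

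In normal cells the genes were low in most progenitors and high in GMP. In the 21 normal samples other than GMP and the 4 libraries, the median of S100a8 was 24.3 FPKM (range 4.93 to 997 FPKM), of Camp 3.13 FPKM (0 to 203 FPKM), and of Ltf 0.64 FPKM (0.06 to 54.7 FPKM). Lyz2 was the exception, at a median of 183 FPKM (12.4 to 316 FPKM), so its transcript was at hand in progenitors that hardly held the granule genes. In GMP, S100a8 was at 4245, 770, 1856, 1904 and 1636 FPKM and Ltf at 64.9, 6.41, 46.8, 43.8 and 45.8 FPKM in replicates 1 to 5. Mmp8 and Mmp9 were low in GMP, at 3.01 to 13.1 FPKM and 0.27 to 7.58 FPKM. GMP replicate 2 was the lowest GMP for all 10 genes and GMP replicate 1 the highest for 8 of them.

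**Figure D2:**
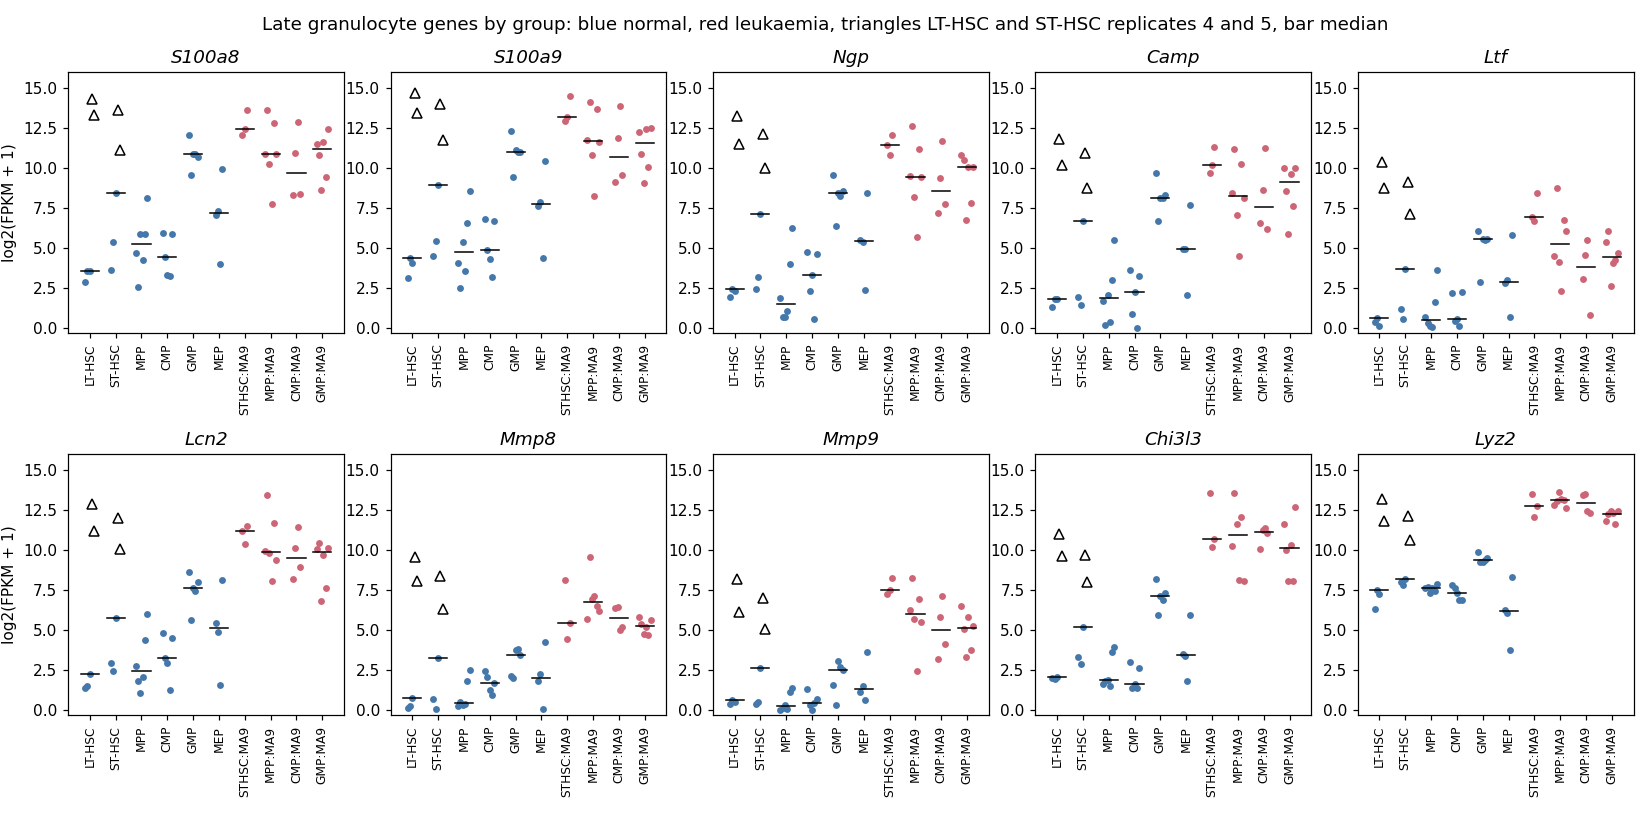
Level of each gene, as log2(FPKM + 1), in every sample of the 10 groups, with blue points for normal samples, red points for leukaemias, open triangles for LT-HSC and ST-HSC replicates 4 and 5, and bars at group medians. Leukaemia samples and GMP overlap for S100a8, S100a9, Ngp, Camp, Ltf and Lcn2, whereas every leukaemia sample lies above every GMP sample for Mmp8 and Lyz2.

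In normal cells 5 of the genes rose from CMP to GMP. S100a8 was 6.24 ± 1.87 (SE) higher on the log2(FPKM + 1) scale in GMP than in CMP (limma, adjusted p = 0.00969), S100a9 5.79 ± 1.89 higher (adjusted p = 0.0171), Ngp 5.12 ± 1.92 higher (adjusted p = 0.0367), Camp 6.17 ± 1.80 higher (adjusted p = 0.00791) and Chi3l3 5.09 ± 1.41 higher (adjusted p = 0.00536). These 5 of 10 were called, which needed an adjusted p under 0.05 together with a log2 change of more than 1 in either direction, against 3.31% of 12367 genes called higher. The GMP and CMP ranges did not overlap for 8 of the 10, against 9.78% of genes with every GMP above every CMP. Ltf (3.99 ± 1.66, adjusted p = 0.0593), Lcn2 (4.10 ± 1.91, adjusted p = 0.0934) and Lyz2 (2.13 ± 0.96, adjusted p = 0.0832) were among those 8 but missed the threshold. Mmp8 (1.35 ± 1.49) and Mmp9 (1.48 ± 1.21) overlapped and missed it.

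The spread estimate of this fit is shared by all normal groups and so takes in the 4 libraries. These were set apart for high levels of these genes, so leaving them out narrows the spread by selection. Smaller p-values without them, here and below, partly follow from that choice. Without them 9 of 10 genes passed for GMP over CMP, all but Mmp8 (adjusted p = 0.0892), with the same log2 changes and smaller errors, for example 3.99 ± 0.80 for Ltf (adjusted p = 0.000266). GMP over MEP behaved likewise. Only Lyz2 passed with all samples (3.35 ± 1.02, adjusted p = 0.00785), 1 of 10 against 11.2% of genes called higher, and 7 of 10 passed without the 4 libraries. The MEP values were spread widely, with S100a8 at 131, 159, 14.9 and 997 FPKM in replicates 1 to 4, although primary granule genes summed to only 13.3 to 72.2 FPKM there. Leaving out MEP replicate 3 took the Lyz2 call away (adjusted p = 0.0535), and leaving out MEP replicate 4 gave 2 calls.

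None of the 10 genes passed in the other 4 steps with all samples, nor for ST-HSC against LT-HSC without the 4 libraries. The share of all genes called in either direction was 2.26% for ST-HSC against LT-HSC, 3.44% for MPP against ST-HSC, 4.32% for CMP against MPP and 11.8% for MEP against CMP. At an unadjusted p under 0.05, 5 genes were lower in MPP than in ST-HSC (S100a9, Ngp, Camp, Mmp9 and Chi3l3), and the difference was smaller without ST-HSC replicates 4 and 5. S100a8 was 3.21 ± 1.79 lower in MPP with them and 0.60 ± 1.09 lower without them. None of the 10 had an unadjusted p under 0.05 in the other 3 steps. Without the 4 libraries 3 genes passed for MEP against CMP: Camp (2.89 ± 1.11, adjusted p = 0.0417) and Chi3l3 (1.66 ± 0.65, adjusted p = 0.0440) were higher in MEP, and Lyz2 fell by 1.22 ± 0.48 (adjusted p = 0.0489).

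In the leukaemias the late granulocyte genes were high whatever the cell of origin. Over the 19 leukaemias S100a9 ran from 303 to 23030 FPKM with a median of 3675 FPKM, Lcn2 from 112 to 11169 FPKM with a median of 1073 FPKM, and Chi3l3 from 263 to 12410 FPKM with a median of 1692 FPKM. Ltf was much lower, at 0.73 to 436 FPKM with a median of 24.7 FPKM. Lyz2 varied least, from 3231 to 12733 FPKM with a median of 6274 FPKM. The 10 genes together made up 0.794% to 9.48% of the summed FPKM of a leukaemia, against 0.291% to 1.52% in GMP, 0.0175% to 0.0606% in CMP and 0.0271% to 0.134% in MPP. The part of Lyz2, which monocytes and macrophages also make, varied. It was 9381 of the 10660 FPKM of these genes in MPP:MA9 replicate 4 and 8741 of 72876 FPKM in MPP:MA9 replicate 2.

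For leukaemias of MPP and CMP origin the difference from the parent cell was large. In MPP:MA9 S100a8 had a lowest value of 214 FPKM, a median of 1878 FPKM and a highest of 12783 FPKM, against 4.93, 41.3 and 283 FPKM in MPP. Mmp8 had a lowest, median and highest value of 52.0, 107 and 749 FPKM in MPP:MA9 and of 0.23, 0.37 and 4.81 FPKM in MPP. All 10 genes were called higher in MPP:MA9 than in MPP, against 13.5% of 12600 genes, with log2 changes from 4.33 ± 1.07 for Ltf to 8.19 ± 0.94 for Chi3l3 (limma, adjusted p from 0.000644 down to 2.0e-13). The ranges did not overlap for 5 of them (Lcn2, Mmp8, Mmp9, Chi3l3 and Lyz2), against 19.3% of genes.

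In CMP:MA9 S100a8 was at 311, 1994, 7383 and 328 FPKM in replicates 1 to 4, against 59.4, 21.2, 9.15, 8.47 and 58.8 FPKM in CMP. Chi3l3 was at 1071, 2415, 2676 and 2132 FPKM, against 6.98, 1.65, 2.09, 1.66 and 5.26 FPKM. Of the 10 genes 9 were called higher, against 13% of genes, and the same 9 did not overlap between the groups, against 19.2%. Ltf was the exception at 7.54, 22.5, 44.5 and 0.73 FPKM in CMP:MA9 and 3.51, 0.35, 0.50, 0.11 and 3.83 FPKM in CMP (2.37 ± 1.24 higher, adjusted p = 0.0982), and passed once the 4 stem cell libraries were left out of the shared fit (adjusted p = 0.0372). The median of all genes was shifted by -0.16 on the log2 scale in this comparison, small beside these changes.

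For STHSC:MA9 the answer depends on which ST-HSC libraries are used. S100a8 was at 4311, 5524 and 12442 FPKM in STHSC:MA9, above ST-HSC replicates 1 to 3 and 5 and all below replicate 4. With all samples 8 of 10 genes were called higher, against 12.3% of genes, and only Mmp9 and Chi3l3 did not overlap, against 19.6%. Mmp9 was at 154, 183 and 313 FPKM in STHSC:MA9, and 0.31, 0.43, 5.30, 131 and 33.3 FPKM in ST-HSC (4.56 ± 1.07 higher, adjusted p = 0.000587). Ltf was 3.03 ± 1.35 higher (adjusted p = 0.0621) and Mmp8 2.25 ± 1.08 higher (adjusted p = 0.0845). Without the 4 libraries all 10 passed, Ltf at 5.56 ± 1.20 (adjusted p = 0.000230) and Mmp8 at 4.65 ± 0.82 (adjusted p = 1.46e-05). The libraries left out were set apart for high levels of these same genes. Leaving them out thus lowers the ST-HSC level and the spread by selection, and these p-values are no independent evidence. The count of 8 fell to 5 without ST-HSC replicate 1, to 4 without ST-HSC replicate 2 and to 4 without STHSC:MA9 replicate 3, and to 3 when only the 2 groups entered the fit.

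GMP:MA9 against GMP gave a different picture, with fewer calls. Normal GMP already held much of the programme, although Mmp8 and Mmp9 were low there, and the part of the parent level in this was not tested. S100a8 had a lowest, median and highest value of 392, 2367 and 5422 FPKM in GMP:MA9, inside and around the 770 to 4245 FPKM of GMP (0.08 ± 1.20 lower, adjusted p = 0.967). S100a9 (0.21 ± 1.25 higher), Camp (0.43 ± 1.29 higher), Ngp (1.10 ± 1.31 higher), Lcn2 (1.66 ± 1.19 higher) and Ltf (0.61 ± 1.12 lower) did not pass either, and with errors of 1.12 to 1.31 sizeable differences in either direction remain possible.

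The 4 genes that passed, against 13.5% of genes called higher, were Mmp8, Mmp9, Chi3l3 and Lyz2. Lyz2 was at 947, 604, 610, 670 and 718 FPKM in GMP and at 3231, 5000 and 5606 FPKM as lowest, median and highest in GMP:MA9, with no overlap (2.71 ± 0.45 higher, adjusted p = 4.5e-06). Mmp9 was at 2.01, 0.27, 7.58, 5.57 and 4.72 FPKM in GMP and at 9.29, 34.5 and 91.4 FPKM in GMP:MA9, again with no overlap (2.91 ± 0.89 higher, adjusted p = 0.00545). Mmp8 was at 3.46, 3.01, 12.6, 13.1 and 10.1 FPKM and at 25, 38.2 and 54.7 FPKM (2.21 ± 0.90 higher, adjusted p = 0.0344), with no overlap. The Mmp8 call was lost with 0.1 as the pseudocount (adjusted p = 0.0691), without the low-level filter (adjusted p = 0.0665), with the replicate number as a block (adjusted p = 0.0533), and on leaving out GMP replicate 1 or 2 or GMP:MA9 replicate 1, 2 or 6 (adjusted p from 0.0509 to 0.0858). Chi3l3 was at 288, 61.6, 140, 120 and 158 FPKM in GMP and at 267, 1154 and 6779 FPKM in GMP:MA9, where the lowest 2 samples lay within the GMP range (3.04 ± 0.99 higher, adjusted p = 0.00852). Ranges did not overlap for 3 of the 10 genes, against 20.1% of genes.

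**Figure D3:**
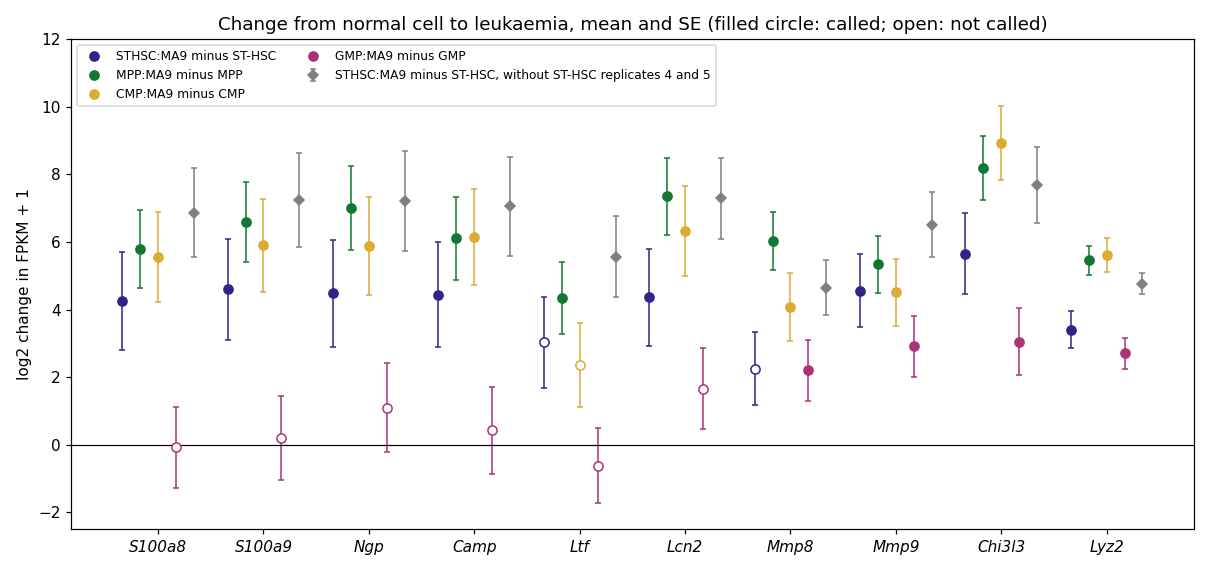
Log2 change in FPKM + 1 from each normal cell to its leukaemia, with SE, for the 10 genes. Filled circles passed the threshold and open circles did not, and grey diamonds give STHSC:MA9 against ST-HSC without ST-HSC replicates 4 and 5, which lie above the purple values that include them. The GMP:MA9 values (magenta) are the lowest of each gene, between -0.61 and 3.04.

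Whether the change differed among the 4 origins was tested directly with an interaction F test. It passed for 8 of 10 genes, against 38% of 12600 genes, with Lyz2 (adjusted p = 0.000631) and Chi3l3 (adjusted p = 0.00452) the clearest, and not for Ltf (adjusted p = 0.0589) and Mmp9 (adjusted p = 0.369). Without the 4 libraries 9 passed, all but Mmp9. The 4 parent cells differ in how much of each gene they held, so this test reads the parents as well as the leukaemias. The count fell to 4 without GMP replicate 5, GMP:MA9 replicate 3 or GMP:MA9 replicate 5, to 5 without GMP replicate 1, and to 4 without the low-level filter.

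Few differences between leukaemias of different origin passed the test for these genes. The F test over the 4 origins passed for 0 of 10 genes, against 13.3% of 12128 genes, with Ltf (unadjusted p = 0.0302), Mmp8 (unadjusted p = 0.0484) and Lyz2 (unadjusted p = 0.0196) under 0.05 before adjustment by limma. STHSC:MA9 held the highest mean log2 level of S100a8, S100a9, Ngp, Camp, Ltf, Lcn2, Mmp9 and Chi3l3 among the leukaemias, with Ltf at 123, 102 and 344 FPKM there against at most 65.7 FPKM in GMP:MA9 and 44.5 FPKM in CMP:MA9, whereas MPP:MA9 replicate 2 reached 436 FPKM. Ranges did not overlap for 4 of 10 genes against GMP:MA9 (S100a9, Ngp, Ltf and Mmp9) and for 2 against CMP:MA9 (Ltf and Mmp9), beside 4.25% and 5.43% of all genes with STHSC:MA9 higher. For Ltf neither difference passed (STHSC:MA9 over GMP:MA9 2.86 ± 1.13, adjusted p = 0.188, and over CMP:MA9 3.87 ± 1.22, adjusted p = 0.137). The share of all genes called in these 2 comparisons was 0.536% and 0.363%. In the 2 other pairs without a call, STHSC:MA9 against MPP:MA9 and MPP:MA9 against CMP:MA9, 2.88% and 0.115% of genes were called, and for CMP:MA9 against GMP:MA9, also without a call, 0.206%.

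The one pair with a call was MPP:MA9 against GMP:MA9, in which Mmp8 was 1.77 ± 0.59 higher in MPP:MA9 (adjusted p = 0.0467), against 1.39% of genes called higher. The groups overlapped, and the call was lost on leaving out any 1 of 10 of the 12 samples, with MPP:MA9 replicate 2 (749 FPKM) among them (adjusted p = 0.0907). Lyz2 was higher in each of the 6 MPP:MA9 samples, at 6274 to 12733 FPKM, than in any of the 6 GMP:MA9 samples, at 3231 to 5606 FPKM, as were 5.51% of genes. Its change of 0.92 ± 0.28 (adjusted p = 0.0287) fell short of the fold threshold.

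Within an origin the leukaemias differed widely from each other. In MPP:MA9 replicate 2 was highest for 9 of the 10 genes, all but Lyz2, and replicate 4 was lowest for 7, with S100a8 at 12783 and 214 FPKM. Yet replicate 4 held 138 FPKM of Mmp8, in its group below only replicate 2 (749 FPKM), and 9381 FPKM of Lyz2, below only replicate 3 (12733 FPKM). STHSC:MA9 replicate 1 held 276 FPKM of Mmp8 and 12299 FPKM of Chi3l3, while replicates 2 and 3 held 20.9 and 43.1 FPKM of Mmp8 and 1160 and 1692 FPKM of Chi3l3, although replicate 3 was the highest of the 3 for 7 genes.

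The relation of each gene to S100a8 over the 19 leukaemias, on the log2(FPKM + 1) scale, was examined after these values had been seen. S100a9 (r = 0.99, Spearman's rho 0.99), Camp (r = 0.97, rho 0.98), Ngp (r = 0.96, rho 0.94), Mmp9 (r = 0.94, rho 0.91), Lcn2 (r = 0.89, rho 0.88) and Ltf (r = 0.88, rho 0.83) followed it closely. Each of these 6 had a permutation p of 1e-05, the smallest that 100000 permutations can give, for r and for rho (adjusted over 9 relations, 1.5e-05). Chi3l3 followed it less (r = 0.63, permutation p = 0.00373, adjusted 0.0048, and rho 0.63, permutation p = 0.00467, adjusted 0.0060). No such relation was found for Mmp8 (r = 0.19, permutation p = 0.441, adjusted 0.496, and rho 0.06, adjusted 0.819) or Lyz2 (r = -0.04, permutation p = 0.862, adjusted 0.862, and rho -0.06, adjusted 0.819). With the 2 samples farthest from the median of S100a8 left out, r was 0.84 to 0.98 for the first 6 genes, 0.49 for Chi3l3, 0.10 for Mmp8 and -0.01 for Lyz2. Within the 6 GMP:MA9 samples alone r was 0.86 for Mmp8, 0.94 for Chi3l3 and 0.15 for Lyz2, and within the 6 MPP:MA9 samples 0.42, 0.79 and -0.17. Of the first 6 genes Ltf was at 0.59 within GMP:MA9 and the others at 0.85 to 0.97. Within MPP:MA9 all 6 were at 0.949 to 0.997. These values within an origin are a description without a test. The permutations above shuffled all 19 leukaemias without regard to origin.

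Levels were also set against S100a8 in the same sample, after the values had been seen and as a description without a test. S100a8 itself differed by only -0.08 on the log2 scale between GMP:MA9 and GMP, so for this pair the ratios mostly restate the changes given above and are no further evidence. Per 100 FPKM of S100a8, normal GMP held 6.35 to 15.5 FPKM of Lcn2 and GMP:MA9 21.2 to 75.8 FPKM. Chi3l3 was at 6.29 to 9.64 FPKM in GMP and 38.7 to 125 FPKM in GMP:MA9, and Mmp9 at 0.0351 to 0.408 FPKM and 0.681 to 3.14 FPKM. Ltf, per 100 FPKM of S100a8, was at 0.832 to 2.80 FPKM in GMP, 0.456 to 3.60 FPKM in GMP:MA9 and 4.09 to 6.66 FPKM in the 4 stem cell libraries. Those 4 libraries held Chi3l3 at 6.64 to 11.9 FPKM per 100 FPKM of S100a8, near GMP and below each of the 19 leukaemias (13.6 to 651 FPKM).

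**Figure D4:**
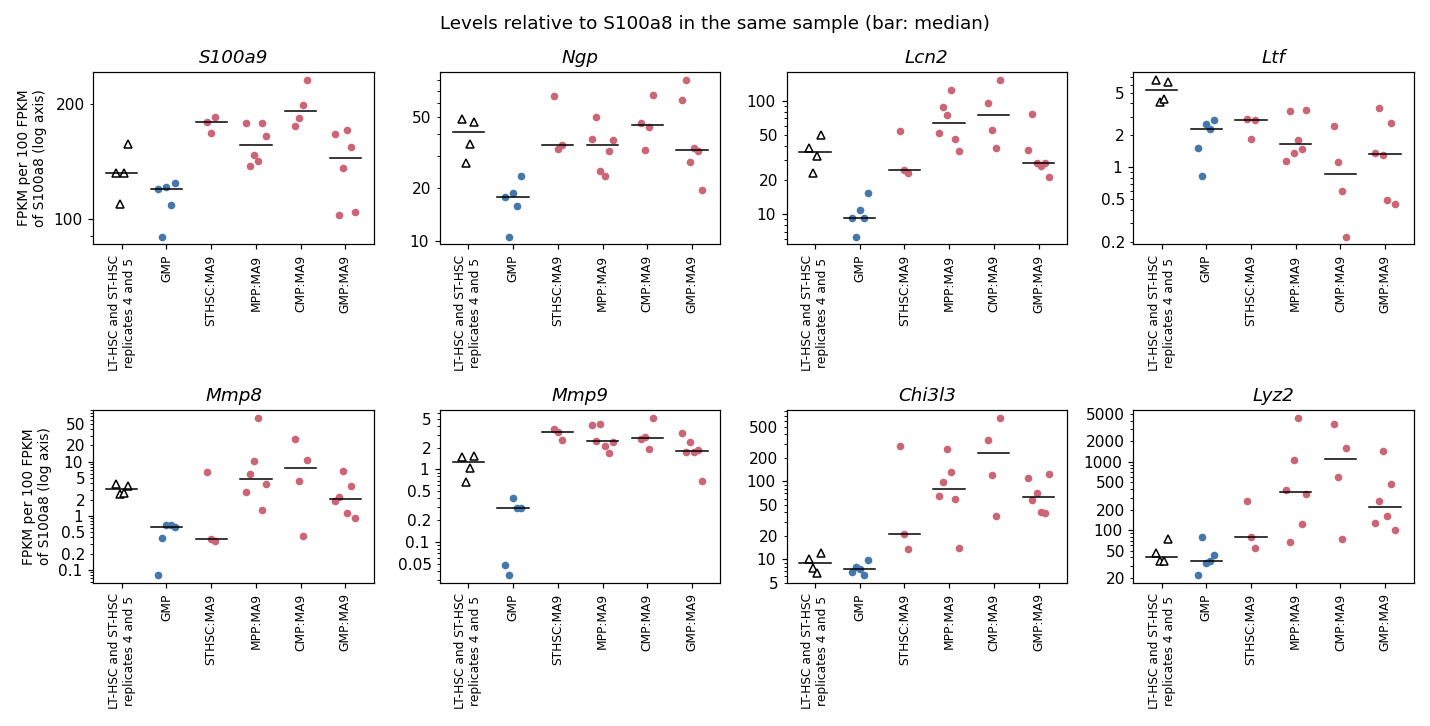
FPKM of 8 genes per 100 FPKM of S100a8 in the same sample, on log axes, for the 4 stem cell libraries (triangles), GMP (blue) and the leukaemias (red), with bars at the median. Ltf is highest in the 4 stem cell libraries (4.09 to 6.66), and Chi3l3 is higher in each leukaemia (13.6 to 651) than in GMP (6.29 to 9.64).

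Primary granule genes were lower in the GMP comparison, in which 6 of the 10 late genes were not called and 4 were called higher. All 6 (Mpo, Elane, Prtn3, Ctsg, Ms4a3 and Prss57) were called lower in GMP:MA9 than in GMP without overlap, against 8.87% of genes called lower. Mpo fell by 7.95 ± 0.53 on the log2 scale (adjusted p = 1.4e-14), Elane (neutrophil elastase) by 4.15 ± 0.73 (adjusted p = 9.4e-06) and Prtn3 (proteinase 3) by 3.04 ± 0.37 (adjusted p = 1.4e-08). Their summed level was 17448 to 26087 FPKM in the 5 GMP and 321 to 1977 FPKM in the 6 GMP:MA9, whereas the 10 late genes summed to 2370 to 12589 FPKM and 5923 to 26704 FPKM. Lyz2, which monocytes and macrophages also make, held 604 to 947 FPKM of the late sum in GMP and 3231 to 5606 FPKM of it in GMP:MA9. The difference in the late sum is therefore partly that of Lyz2. Of the 6 primary granule genes only Mpo was lower against the other parents, by 3.73 ± 0.64 in STHSC:MA9, 5.71 ± 0.51 in MPP:MA9 and 5.78 ± 0.59 in CMP:MA9. Prtn3 and Ctsg were called higher in STHSC:MA9 (1.62 ± 0.44 and 1.63 ± 0.64). Without the 4 libraries 4 of the 6 were called higher in STHSC:MA9, Elane (2.54 ± 0.97) and Prss57 (1.46 ± 0.61) among them.

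**Figure D5:**
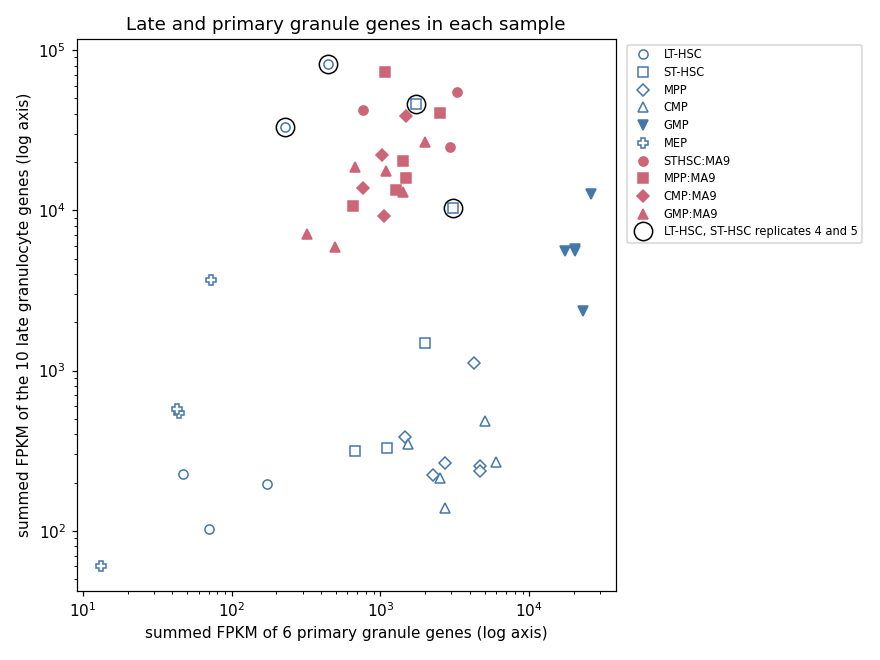
Summed FPKM of the 10 late granulocyte genes against that of 6 primary granule genes in each sample, on log axes, blue for normal cells and red for leukaemias. Lyz2, which monocytes and macrophages also make, is part of the late sum. The 5 GMP (filled blue) lie at the right, at 17448 to 26087 FPKM of primary granule genes, the 19 leukaemias lie at 321 to 3257 FPKM with high late genes, and the 4 circled stem cell libraries lie among or beside the leukaemias.

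The other late granulocyte genes, a list of 30 that includes receptors, oxidase subunits and granule proteins, were called higher in 21 of 30 for STHSC:MA9, 29 of 30 for MPP:MA9, 24 of 30 for CMP:MA9 and 14 of 30 for GMP:MA9 against their parent cells, beside 12.3%, 13.5%, 13% and 13.5% of all genes. Without the 4 libraries the count was 26 of 30 for STHSC:MA9 and 15 of 30 for GMP:MA9, and the same for MPP:MA9 and CMP:MA9. In GMP:MA9 1 of the 30, Fcnb (ficolin B), was lower (-1.78 ± 0.75, adjusted p = 0.0400), and is named for that after its values were seen. The median log2 change of the list was 2.87, 3.74, 3.79 and 1.06, against -0.04, -0.09, -0.16 and 0.00 over all genes. The largest was Stfa2l1, a stefin A-like protease inhibitor gene, which was at 2.39 to 6.39 FPKM in GMP and 74.7 to 2036 FPKM in GMP:MA9 (6.63 ± 0.88 higher, adjusted p = 9.5e-08), and 9.25 ± 0.98 higher in CMP:MA9 than in CMP. Ifitm6 (7.08 ± 0.82), Fpr2 (a formyl peptide receptor, 6.72 ± 0.71) and Cd177 (a neutrophil surface antigen, 6.42 ± 0.70) followed in MPP:MA9 over MPP, with Cybb (the NADPH oxidase subunit gp91phox, 6.45 ± 0.53) and Mcemp1 (6.26 ± 0.61) in CMP:MA9 over CMP. From CMP to GMP 10 of the 29 genes tested rose, against 3.31% of all genes, and 0 fell. Fcnb rose most (6.26 ± 1.14), with Trem3 (4.45 ± 0.95), Pglyrp1 (4.00 ± 1.06) and Hp (haptoglobin, 3.64 ± 1.07) among them. Without the 4 libraries 19 of 23 tested rose, against 3.66% of all genes. Fewer genes of the list reached the low-level filter once these libraries, high in most of them, were left out. The 2 counts thus cover different genes.

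Of 10 listed regulators of myeloid genes (C/EBP factors, Gfi1, Spi1, Runx1, Irf8, Klf5 and the clock gene Per3, with Cebpe also in the list above), 7 were called higher and 2 lower in STHSC:MA9, 6 and 1 in MPP:MA9, 4 and 1 in CMP:MA9, and 1 and 2 in GMP:MA9. The shares of all genes called higher were those just given, and 11.9%, 13.6%, 14.8% and 8.87% were called lower, so the single regulators higher in GMP:MA9 and lower in MPP:MA9 and CMP:MA9 are near these shares. The counts were the same without the 4 libraries. Cebpe (C/EBPε, needed for secondary granule genes) was higher by 3.38 ± 0.56 in CMP:MA9, 2.42 ± 0.48 in MPP:MA9 and 2.42 ± 0.60 in STHSC:MA9. In GMP:MA9 it was at 3.78 to 30.6 FPKM against 17.1 to 32.5 FPKM in GMP, with no call. Cebpb was higher against all 4 parents, by 1.41 ± 0.20 (GMP) to 2.33 ± 0.22 (CMP), and Cebpd by 2.18 ± 0.42 to 2.98 ± 0.37 in the 3 leukaemias other than GMP:MA9. Spi1 (PU.1) was 2.02 ± 0.29 to 2.09 ± 0.23 higher in the same 3. Gfi1, a repressor that granulocyte development requires, was 2.48 ± 0.66 higher in STHSC:MA9 and fell by 1.34 ± 0.55 in GMP:MA9 (adjusted p = 0.0352). Per3 was lower against all 4 parents. In normal cells Cebpe (3.63 ± 0.76), Gfi1 (2.46 ± 0.32) and Cebpd (1.29 ± 0.49) rose from CMP to GMP.

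Markers of monocytes and macrophages were also higher in the leukaemias than in their parent cells. Of 9 markers 8 were called higher in STHSC:MA9, 9 in MPP:MA9, 9 in CMP:MA9 and 7 in GMP:MA9, with the same shares of all genes and the same counts without the 4 libraries, and their summed level was 335 to 1101 FPKM in the 19 leukaemias against 292 to 498 FPKM in GMP and 96.0 to 299.8 FPKM in CMP. None of these markers was at 0 in a leukaemia. Between leukaemias the list medians differed in sign: the median log2 difference of STHSC:MA9 from MPP:MA9, CMP:MA9 and GMP:MA9, which share the STHSC:MA9 samples, was -0.86, -0.57 and -0.72 for the monocyte markers and 1.75, 2.34 and 1.92 for the 10 genes. It was 0.32, 0.69 and 0.95 for the 30 other late granulocyte genes. Of the 10 genes and of these 30, 0 were called in the 3 comparisons. Of the 9 monocyte markers 1 was called, lower against MPP:MA9, beside 2.47% of all genes. Erythroid markers were called lower in 7 of 7 for STHSC:MA9 (11.9% of all genes), 6 of 7 for CMP:MA9 (14.8%), and 0 of 7 for MPP:MA9 (13.6%) and GMP:MA9 (8.87%). The counts were 4 of 7 for STHSC:MA9, 7 for CMP:MA9, 4 for MPP:MA9 and 2 for GMP:MA9 without the 4 libraries. Erythroid markers summed to 213, 6533, 99.7, 43224 and 7050 FPKM in ST-HSC replicates 1 to 5 and to 37.5 to 224 FPKM in STHSC:MA9. The T lymphoid and megakaryocyte markers summed to at most 3.89 and 6.75 FPKM in a leukaemia. S100a8, S100a9, Lyz2 and Chi3l3 are also transcribed in monocytes or macrophages, and the part of such cells in the values was not tested.

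The group means of each gene could be ranked over the 10 groups, but neighbours in the ranking overlapped in 9 of 9 pairs for 9 genes and in 8 of 9 for Lyz2. The pattern of the 10 genes together, as the mean of their log2(FPKM + 1) in each of the 10 groups, was most like that of 4930438A08Rik (Pearson's r = 0.987), Cd177 (0.985), Megf9 (0.985), Gda (0.979) and 1810033B17Rik, also called Mcemp1 (0.976). These are the 5 most alike among genes with a symbol, over 10 group means that share the 4 stem cell libraries, and all 5 had their highest group mean in STHSC:MA9. Among the 10 genes themselves Lcn2 (0.995) was closest to their common pattern and Ltf (0.895) farthest from it. Each gene is itself part of that pattern, which raises these values.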

How the data were processed

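The authors mapped the reads to mm9, estimated gene levels with RSEM and deposited them as FPKM with 2 decimals, per the labels and the table; version, annotation and strand of counting are not given in the sources used here. Amplified cDNA (NuGEN Ovation) was sequenced. Of 68 sample columns 49 matched a labelled sample, and 19 matched none and were not used. log2(FPKM + 1) was fitted with limma 3.58.1 in R 4.3.3 (empirical Bayes with trend, two-sided) over genes averaging 1 FPKM or more, with 1 fit each for leukaemias with their parent cells (12600 genes), leukaemias (12128) and normal cells (12367). P-values were adjusted by Benjamini-Hochberg over all genes of a fit, and a call needed an adjusted p under 0.05 together with a log2 change beyond 1 either way. The fits were tested on simulated data in which the spread of each gene was capped. That check does not cover genes as widely spread as most of these. Relations to S100a8 used permutation tests (scipy 1.17.1). The genes and lists were chosen with earlier results of these data known. All 10 genes are counted in each comparison, and those a result turns on are given with values. From each list at most 6 called genes of largest change per family are named, plus those that mark the libraries standing apart and Fcnb, a single gene called lower. Deviations of same-numbered samples from their group means correlated above 0.1 in every pair only for ST-HSC and LT-HSC (5 pairs, 0.288 on average, 0.142 at lowest). With the replicate number as a block 0 of 10 genes were called there, as without. Relative depth came from pairwise steps of low values, which fitted for 82.3% of pairs. FPKM values carry no counts, so no counting interval was computed. Alternatives are named in the closing section.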

Additional observations from a re-analysis of the deposited data

Results flagged for a closer look

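By Dixon's test, applied to 90 combinations of gene and group of 4 to 6 samples, 2 values stood apart, and chance alone flags about 1 in 20. Ltf in GMP replicate 2, at 6.41 FPKM, lay below the other 4 GMP with a gap of 0.8234 of the group's range on the log2(FPKM + 1) scale. Mmp8 in MPP:MA9 replicate 2, at 749 FPKM, lay above the other 5 with a gap of 0.6355 of the range on that scale.

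By the limma interaction F test the difference between leukaemia and parent cell was not the same for the 4 origins for S100a8 (adjusted p = 0.0177), S100a9 (adjusted p = 0.01536), Ngp (adjusted p = 0.04566), Camp (adjusted p = 0.03236), Lcn2 (adjusted p = 0.02924), Mmp8 (adjusted p = 0.04091), Chi3l3 (adjusted p = 0.004521) and Lyz2 (adjusted p = 0.0006312). In each of the 8 the smallest change was that of GMP:MA9 over GMP.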

How the results depend on the processing

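Alternatives were 0.1 as the pseudocount, all genes kept whatever their level, scaling by median ratios, fits of only the groups compared, a replicate block, a correction for GC content and length with and without that block, no fold threshold, the 4 stem cell libraries left out, and each sample left out in turn. Leaving out ST-HSC replicate 3 as well, the relations and ratios to S100a8, and the counts of the other lists without the 4 libraries were chosen after seeing the data. No called difference of the 10 genes reversed, and 26 uncalled ones took another sign under some setting. With only the groups compared, 3 genes were called for STHSC:MA9 over ST-HSC, 1 for MPP against ST-HSC, 10 for GMP over CMP, 1 for MEP against CMP and 6 for GMP over MEP. Without the 4 libraries the counts were 9, 3 and 7 for GMP over CMP, MEP against CMP and GMP over MEP, and 9, 3 and 8 without ST-HSC replicate 3 too. The interaction F test passed for 4 genes with all genes kept. For MPP:MA9 over GMP:MA9 the count was 0 with all genes kept, with median-ratio scaling and with the GC and length correction, and 2 with no fold threshold. Under the GC and length correction calls over all genes between leukaemias also fell, from 349 to 23 for STHSC:MA9 against MPP:MA9, 44 to 5 against CMP:MA9 and 65 to 41 against GMP:MA9, from 270 to 79 for MPP:MA9 against GMP:MA9 and from 25 to 5 for CMP:MA9 against GMP:MA9, over 11655 genes in place of 12128.

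With the replicate block the count was 0 for MPP:MA9 over GMP:MA9 and 2 for MPP against ST-HSC, also with GC and length correction (0 and 2), and 3 for GMP:MA9 over GMP, where Mmp8 missed the threshold (adjusted p = 0.0533), and 7 for GMP over CMP. Outside ST-HSC and LT-HSC no comparison had every same-numbered pair correlated above 0.1. For GMP over CMP the correlation was nevertheless 0.157 on average (0.048 to 0.290 over 5 pairs). Whether the replicate numbers pair the samples there was not tested. For MPP:MA9 over GMP:MA9 the correlation of same-numbered samples ran from -0.17 to 0.28 over 6 pairs.

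With each sample left out in turn the counts ran from 4 to 10 for STHSC:MA9 over ST-HSC, 4 to 9 for the interaction F test, 9 to 10 for CMP:MA9 over CMP, 3 to 4 for GMP:MA9 over GMP, 0 to 1 for the F test among leukaemias, 0 to 2 for MPP:MA9 over GMP:MA9, 0 to 1 for MPP against ST-HSC, 4 to 6 for GMP over CMP and 0 to 2 for GMP over MEP. Among leukaemias the single gene to pass was Mmp8, without STHSC:MA9 replicate 1, and for MPP against ST-HSC 1 gene was called without ST-HSC replicate 1 or 2. The cause of these shifts was not tested. The median log2 change of all genes was -0.16, -0.20, -0.14 and 0.12 for CMP:MA9 over CMP, GMP over CMP, MEP against CMP and ST-HSC against LT-HSC, and median-ratio scaling brought each near 0. FPKM values do not hold the number of reads, so the smallest detectable level of a gene was not computed.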
